A study of Mus musculus with 51 samples.

Results

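The 10 genes followed here license DNA for replication and open S phase: Mcm2, Mcm3, Mcm4, Mcm5, Mcm6 and Mcm7, Cdc6 and Cdt1, and Ccne1 and Ccne2. They were taken by gene symbol, as all probe sets whose platform annotation gives exactly 1 of these symbols, which were 26 of the 34945 probe sets with a single symbol and 10 of 18193 genes. Each gene was read from its probe set of widest spread (SD) across the 51 arrays, and the probe set with the second largest SD, or further ones, are given for results on which they part from it. The genes were named with earlier results of these data known.

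The arrays each held the RNA of 1 oocyte or embryo. Cloned embryos were made from Sertoli cells, which nurse developing sperm in the testis, of B6CBF1 mice, with each donor nucleus placed in a B6D2F1 oocyte, with 5 embryos at each stage. IVF embryos came from B6D2F1 oocytes and B6D2F1 sperm, with 3 embryos at each stage, and 3 unfertilised B6D2F1 oocytes in metaphase II (MII) stood at the start of both series. The 6 stages were 1-cell, 2-cell, 4-cell, 8-cell, morula and blastocyst, taken at 16, 32, 48, 62, 72 and 84 hours after activation of the clones or the addition of sperm. All embryos grew in KSOM medium under 5% oxygen. Clones and IVF embryos thus differ in the strain of the donor genome as well as in how they were made, and clones have no sperm. The age of the animals is not given in the sources used here.

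Before S phase the origin recognition complex, Cdc6 and Cdt1 load the ring of Mcm2 to Mcm7 onto DNA, which licenses each origin to fire once. Cyclin E, encoded by Ccne1 and Ccne2, activates the kinase Cdk2 and starts S phase, and the E2F factors drive transcription of most of these genes in somatic cells. The early mouse embryo first runs on RNA and protein stored in the oocyte, and its own genome is switched on mainly at the 2-cell stage.

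Promoter sequences show what the genes share and where they part. RefSeq windows on GRCm38.p6, from 250 bases before to 50 after the start of transcription, were found for 8 of the 10 genes: Mcm2, Mcm3, Mcm5, Mcm6, Mcm7, Cdc6, Cdt1 and Ccne1. The letters of an E2F-type site, taken as TTCCCGC or as one of its variants with other middle letters (TTCGCGC in one form, TTGGCGC in another and TTGCCGC in the last) on either strand with overlapping matches counted, were present in 6 of these 8 genes (75%). They were present in 37 of 73 other genes of the replication pathway (50.7%), in 16% of 14452 genes on the arrays and in 9.57% of all 32851 windows of this length. The letters CCAAT on either strand were present in 5 of the 8 (62.5%), in 52.1% of the other pathway genes, in 42% of the genes on the arrays and in 37.4% of all windows. Below are the windows of the 4 genes whose step from the 1-cell to the 2-cell stage differed between clones and IVF embryos (Cdc6, Cdt1, Mcm2 and Ccne1), and of Mcm6, which held the most matches. They are written 5′ to 3′ on the strand of the gene, and capitals mark the E2F-type letters.
Cdc6 (chr11:98907901-98908200, plus strand): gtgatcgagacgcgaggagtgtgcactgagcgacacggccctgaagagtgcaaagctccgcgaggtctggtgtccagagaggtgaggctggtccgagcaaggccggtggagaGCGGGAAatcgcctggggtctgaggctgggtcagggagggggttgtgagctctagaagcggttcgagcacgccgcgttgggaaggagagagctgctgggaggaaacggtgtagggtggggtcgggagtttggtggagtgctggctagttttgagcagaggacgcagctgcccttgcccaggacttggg
Cdt1 (chr8:122567765-122568064, plus strand): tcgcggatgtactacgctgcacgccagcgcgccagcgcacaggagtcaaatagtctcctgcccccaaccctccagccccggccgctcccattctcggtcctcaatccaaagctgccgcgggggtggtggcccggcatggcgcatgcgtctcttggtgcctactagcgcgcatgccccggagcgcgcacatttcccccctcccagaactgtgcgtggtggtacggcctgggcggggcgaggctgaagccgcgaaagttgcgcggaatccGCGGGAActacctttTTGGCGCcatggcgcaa
Mcm2 (chr6:88898731-88899030, minus strand): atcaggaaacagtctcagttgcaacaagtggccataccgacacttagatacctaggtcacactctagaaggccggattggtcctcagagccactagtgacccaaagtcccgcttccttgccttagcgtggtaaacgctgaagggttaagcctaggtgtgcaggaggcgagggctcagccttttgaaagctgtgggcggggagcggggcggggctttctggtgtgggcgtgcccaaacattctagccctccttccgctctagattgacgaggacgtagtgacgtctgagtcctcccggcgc
Mcm6 (chr1:128359656-128359955, minus strand): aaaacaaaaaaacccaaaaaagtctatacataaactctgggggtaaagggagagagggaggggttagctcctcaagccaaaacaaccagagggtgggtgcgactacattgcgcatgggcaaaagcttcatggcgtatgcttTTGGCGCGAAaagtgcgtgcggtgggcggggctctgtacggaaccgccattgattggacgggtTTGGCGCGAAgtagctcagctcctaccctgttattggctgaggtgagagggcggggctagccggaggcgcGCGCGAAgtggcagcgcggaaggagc
Ccne1 (chr7:38107441-38107740, minus strand): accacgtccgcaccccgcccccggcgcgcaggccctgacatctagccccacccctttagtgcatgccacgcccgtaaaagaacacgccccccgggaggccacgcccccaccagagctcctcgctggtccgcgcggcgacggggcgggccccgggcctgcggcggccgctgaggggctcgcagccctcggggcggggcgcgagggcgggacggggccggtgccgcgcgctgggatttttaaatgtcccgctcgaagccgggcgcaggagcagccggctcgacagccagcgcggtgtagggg
Mcm6 held 5 matches, 4 of them in 2 overlapping pairs, Cdt1 held 2 and Cdc6 held 1. Mcm2 and Ccne1 held 0 in this window. A match is a run of letters and not a measured binding site.

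The deposited values are log2 values with each probe set centred on its median over the 51 arrays. A value of 0 is therefore the middle of that probe set's own range, and only differences between samples of the same probe set can be read. Groups were compared with limma over all 18193 genes, and a gene was called past the threshold at an adjusted p below 0.05 after Benjamini-Hochberg correction over all of them. Since each array is scaled to the others, a difference is relative to the rest of the embryo's RNA, and fewer expressing cells cannot be told apart from less RNA per cell.

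The arrays followed their labels in the main, with some departures that touch the results. The 7 oocyte markers averaged 6.70 in MII oocytes on the centred log2 scale and at most -2.53 in any blastocyst. The 7 markers of trophectoderm and inner cell mass averaged 5.40 in cloned and 5.68 in IVF blastocysts, against -1.19 in oocytes. The 9 Sertoli cell markers lay between -0.37 and 0.88 in every embryo. The Y-linked gene Eif2s3y was at -5.25 in replicate 4 of the cloned 8-cell embryos, while the other 4 lay between -2.70 and 1.23, so this embryo goes against a male donor and results of the 8-cell stage that are described below are also given without it. In tests of steps, leaving it out drops replicate 4 of every clone stage. Eif2s3y also varied widely within each IVF group from the 2-cell stage on, as in IVF blastocysts with -5.52, 2.24 and 2.06. The IVF groups thus appear to mix the sexes, while clones come from male donor cells, and the part of sex in the results was not tested. The 9 hybridisation control probe sets, added to each array in fixed amount, differed between clones and IVF embryos by -1.05 at the 1-cell stage, 1.3 at the 2-cell stage, 1.35 at the 4-cell stage and 0.83 at the 8-cell stage (exact 2-sided permutation tests, p = 0.0357, 0.0179, 0.0179 and 0.0357, adjusted over the 6 stages 0.0536 each). At the morula and blastocyst stages they differed by 0.369 and -0.264 (adjusted p = 0.214 and 0.129, exact permutation tests). The control signal thus moved with the comparison of clones and IVF embryos at 4 stages, and its part in the results was not tested beyond the covariate fits given below. At these 4 stages the control means of clones and IVF embryos did not overlap, as with 0.611 to 1.27 against -0.721 to -0.232 at the 2-cell stage. A covariate fit of 8 arrays can hardly separate the controls from the comparison there, so a call kept or lost in it does not measure their part. Those fits were run for the stage comparisons only, so no step or step difference was adjusted for it.

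Several genes changed in both clones and IVF embryos. Ccne1 fell after the oocyte stage, rose at the 2-cell stage by more than any other member, and fell again between the 8-cell stage and the morula. By their main probe sets Cdc6 and Mcm5 rose early, Mcm7 ended at its highest level in the blastocyst, and Ccne2 fell between morula and blastocyst. The rises of Cdc6 and Mcm5 from the oocyte lost their calls in both series after renewed quantile normalisation, and the probe sets of Mcm7 parted on the cloned blastocyst. Between clones and IVF embryos Ccne1 passed the threshold at 3 of the 6 stages: it was lower than in IVF embryos at the 2-cell and 4-cell stages and higher in the blastocyst. Mcm2 rose at the morula stage in clones, and the difference between the clone and IVF steps passed the test there and at the 2-cell stage.

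Counts of members are read against the share of all genes called in the same comparison. In clones against IVF embryos, 1 of 10 members (Mcm5, higher in clones) was past the threshold at the 1-cell stage, where 6.31% of all genes were. At the 2-cell stage 1 member (Ccne1, lower) was called against 2.37% of all genes, and at the 4-cell stage again 1 (Ccne1, lower) against 2.26%. At the 8-cell stage limma called 0 members against 6.62% of all genes, although 4 had an unadjusted p below 0.05. At the morula stage limma called 0 members against 0.165%, and 2 had an unadjusted p below 0.05. In blastocysts 1 member (Ccne1, higher) was called against 6.18%. The median member differed by 0.08, -0.34, -0.15, -0.24, -0.06 and -0.26 over the 6 stages in order, and the median of all genes by no more than 0.04 at any of them.

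**Figure D1:**
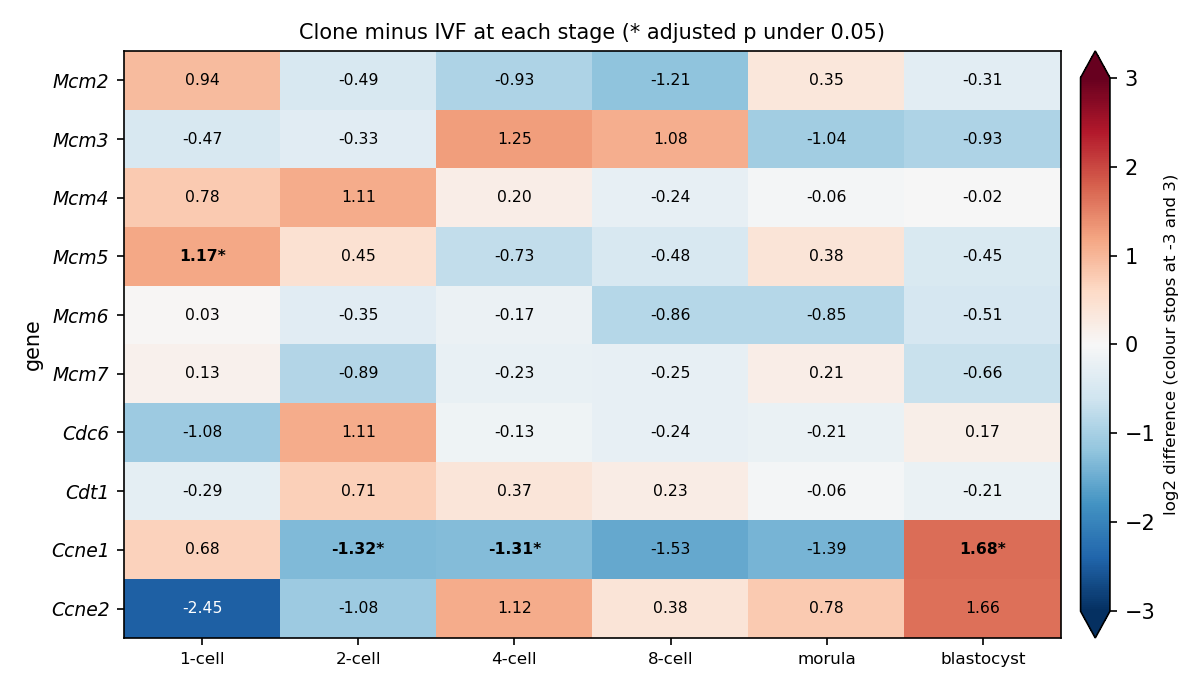
Log2 difference of clones minus IVF embryos (colour and printed value) for the 10 genes in rows and the 6 stages in columns, with an asterisk at an adjusted p below 0.05 in limma. The 4 marked cells are Mcm5 at the 1-cell stage (1.17) and Ccne1 at the 2-cell (-1.32), 4-cell (-1.31) and blastocyst (1.68) stages.

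The steps between stages moved many more genes, members among them. From MII oocyte to 1-cell embryo, 7 of 10 members changed in clones (2 up, 5 down, with 23.3% of all genes called) and 6 in IVF embryos (2 up, 4 down, with 30.6%). The clone and IVF steps from the oocyte use the same 3 oocytes, and after renewed quantile normalisation limma called 0 members in the clone step and 3 in the IVF step. The shares of all genes called after that normalisation are not given here. From 1-cell to 2-cell, all 10 members changed in clones (6 up, 4 down, with 41.3%) and 5 in IVF embryos (4 up, 1 down, with 35.9%). From 2-cell to 4-cell, 3 rose in clones (with 29.9%), and 3 rose and 2 fell in IVF embryos (with 23.8%). Between 4-cell and 8-cell limma called 0 members in clones (2 with an unadjusted p below 0.05, with 6.5% of all genes called) and 0 in IVF embryos (0 with an unadjusted p below 0.05, with 1.98%). From 8-cell to morula, 6 changed in clones (3 up, 3 down, with 17.4%) and 3 in IVF embryos (1 up, 2 down, with 17.2%). From morula to blastocyst, 3 changed in clones (1 up, 2 down, with 34.5%) and 6 in IVF embryos (4 up, 2 down, with 22.6%). The clone counts at the 2-cell to 4-cell step and at this last step were shares of members close to those of all genes and say nothing particular of them.

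**Figure D2:**
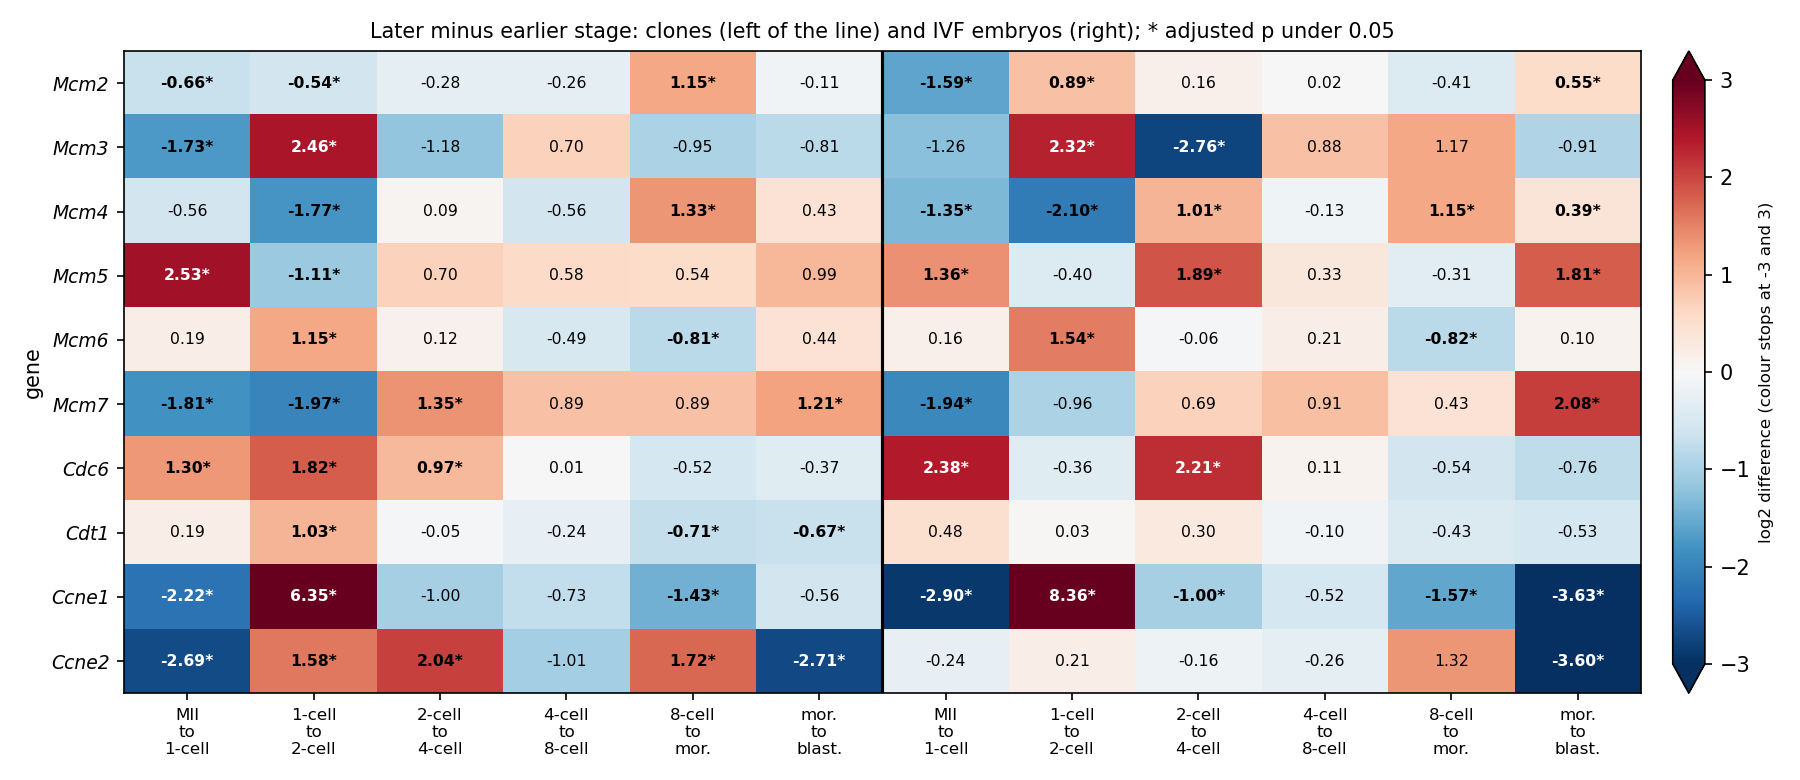
Log2 difference of each stage minus the one before it (colour, which stops at -3 and 3, and printed value) for the 10 genes in rows, with the 6 steps of the clone series left of the line and those of the IVF series right of it, and an asterisk at an adjusted p below 0.05. Ccne1 at the 1-cell to 2-cell step holds the largest values, 6.35 in clones and 8.36 in IVF embryos, and the 4-cell to 8-cell columns hold no asterisk.

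The test of the difference between the clone and IVF steps, an interaction term over all 51 arrays, called 4 members at the 1-cell to 2-cell step, where 11.2% of all genes were called. Mcm2 (-1.42 ± 0.31, adjusted p = 0.00141) and Ccne1 (-2.0 ± 0.57, adjusted p = 0.0152) gained less or lost more in clones. Cdc6 (2.19 ± 0.47, adjusted p = 0.00106) and Cdt1 (1.01 ± 0.22, adjusted p = 0.00111) gained more in clones (limma, log2 difference ± SE). After renewed quantile normalisation the calls of Mcm2 (-0.86, adjusted p = 0.173), Ccne1 (-1.42, adjusted p = 0.443) and Cdc6 (1.87, adjusted p = 0.0929) were lost. The hybridisation controls, clones minus IVF embryos, turned from -1.05 to 1.3 over this step, and their part in these differences was not tested. At the 2-cell to 4-cell step 0 members were called by limma (3 with an unadjusted p below 0.05, with 2.64% of all genes called), and at the 4-cell to 8-cell step 0 (1 with an unadjusted p below 0.05, with 1.31%). Mcm2 was called at the 8-cell to morula step (1.56 ± 0.31, adjusted p = 0.00138, with 5.66% of all genes called, and 1.29 without clone replicate 4, adjusted p = 0.00571). Ccne1 was called at the morula to blastocyst step (3.07 ± 0.57, adjusted p = 0.000946, with 1.62%). The p-values rest on the spread between single embryos within groups, pooled over all groups of a fit and moderated across genes by limma.

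Cdc6 is the ATPase that joins the origin recognition complex and recruits the MCM ring (chromosome 11, 98907709 to 98923942, 1 probe set). Its centred log2 value was -2.74, -1.94, -2.19, -1.14 and -2.10 in cloned 1-cell embryos, against -3.13, -2.59 and -4.24 in MII oocytes. The highest oocyte lay inside the range of the clones, and the fitted rise was 1.30 ± 0.34 (limma, adjusted p = 0.0049), which was lost without oocyte replicate 3 (0.84, adjusted p = 0.108). IVF 1-cell embryos had -0.88, -0.93 and -1.01, all above every oocyte and every clone, and the rise from the oocyte was 2.38 ± 0.40 (limma, adjusted p = 0.000205). At the 1-cell stage the clones thus lay below the IVF embryos with no overlap, but the difference did not pass the threshold (-1.08 ± 0.33, limma, adjusted p = 0.132). It passed without clone replicate 4 (-1.30, adjusted p = 0.0293) and when all 51 arrays shared 1 fit (-1.08, adjusted p = 0.0262).

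At the 2-cell stage the order was the other way. Cdc6 was 0.35, -0.33, -0.40, -0.50 and -0.10 in clones, against -1.35, -2.12 and -0.44 in IVF embryos. The groups overlapped through the third IVF embryo, and the difference of 1.11 ± 0.39 did not pass the threshold (limma, adjusted p = 0.245). Cdc6 rose by 1.82 ± 0.27 from the 1-cell to the 2-cell stage in clones (limma, adjusted p = 2.37e-06), while in IVF embryos that step was -0.36 ± 0.40 (adjusted p = 0.627). After renewed quantile normalisation the clone rise of Cdc6 was 0.87 (adjusted p = 0.0923), and the rises from the oocyte to the 1-cell stage were 0.43 in clones and 1.06 in IVF embryos (adjusted p = 1 and 0.147), all past the threshold before it. IVF embryos rose at the following step, by 2.21 ± 0.40 (limma, adjusted p = 0.000714), and clones by 0.97 ± 0.27 (adjusted p = 0.00666). From the 4-cell stage on the 2 kinds of embryo differed by at most 0.24 in the mean, at 0.78 ± 0.34 in clones and 0.91 ± 0.40 in IVF embryos at the 4-cell stage and at -0.10 ± 0.29 and -0.28 ± 0.17 in cloned and IVF blastocysts (SD, n = 5 and 3). The test of the step difference held without each single replicate and was lost when the arrays were quantile-normalised again (1.87, adjusted p = 0.0929).

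Cdt1 carries the MCM ring to the origin and is destroyed once S phase begins (chromosome 8, 122568015 to 122573130, 3 probe sets). In cloned embryos it was 1.16, 0.83, 0.73, 0.54 and 0.53 at the 2-cell stage, against -0.28, -0.36, -0.41, -0.19 and -0.14 at the 1-cell stage, and every 2-cell value lay above every 1-cell value. The rise was 1.03 ± 0.12 (limma, adjusted p = 2.49e-08). In IVF embryos Cdt1 was 0.04, -0.49 and 0.57 at the 2-cell stage, against 0.11, 0.00 and -0.06 at the 1-cell stage, which overlapped (0.03 ± 0.20, adjusted p = 1). Between clones and IVF embryos no stage passed the threshold for Cdt1, with differences of -0.29 ± 0.07 at the 1-cell stage (limma, adjusted p = 0.0736) and 0.71 ± 0.26 at the 2-cell stage (adjusted p = 0.258). Cdt1 then fell in clones at the morula stage (-0.71 ± 0.12, adjusted p = 8.26e-05, and -0.83 without replicate 4, adjusted p = 0.000136) and in the blastocyst (-0.67 ± 0.12, adjusted p = 6.75e-05, limma). The corresponding IVF steps were -0.43 ± 0.20 (adjusted p = 0.199) and -0.53 ± 0.20 (adjusted p = 0.0729). Both losses and the early rise rest on 1 probe set: by that with the second largest SD the rise in clones was -0.09 (adjusted p = 1), the step difference 0.08 (adjusted p = 1) and the 2 falls -0.46 and -0.55 (adjusted p = 0.249 and 0.0903).

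**Figure D3:**
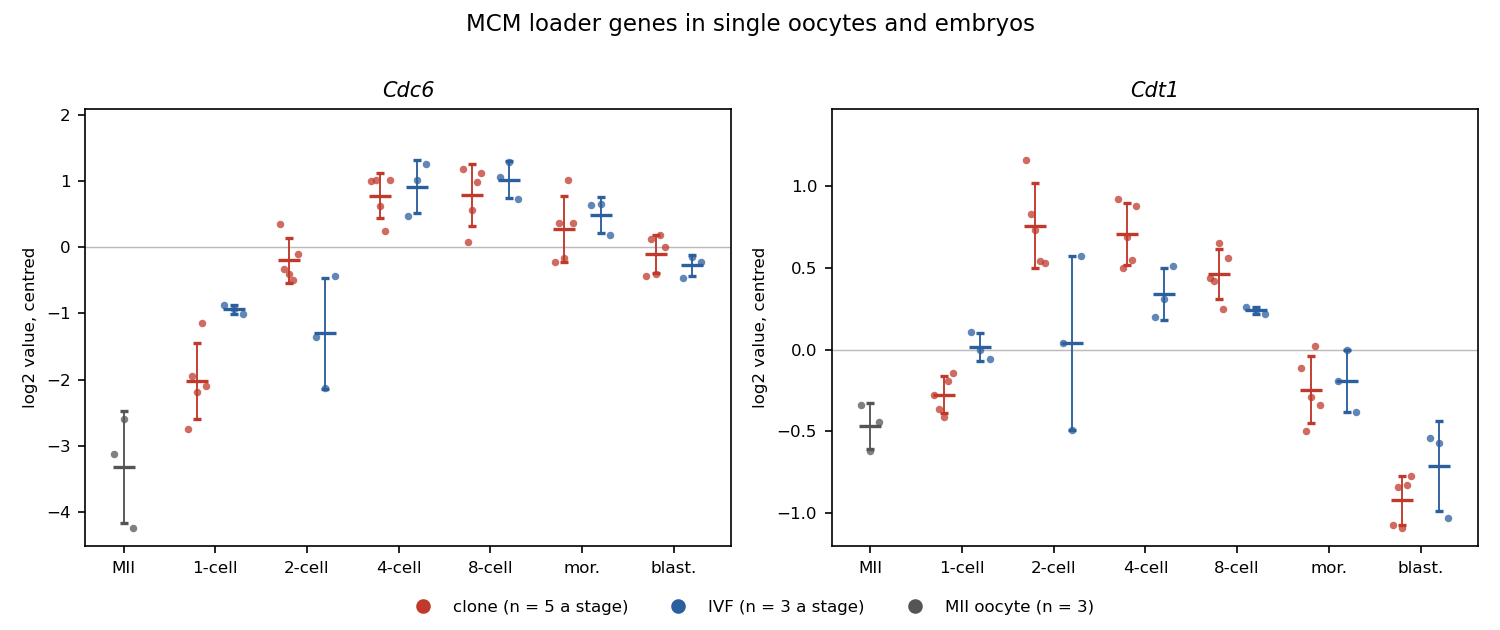
Centred log2 values of Cdc6 and Cdt1 (vertical axes) in MII oocytes and at the 6 stages (horizontal axes), with a point for each embryo, clones left of IVF embryos within a stage, and bars for the mean and SD. In clones both genes step up between the 1-cell and 2-cell stages by the main probe sets, with Cdc6 means of -2.02 and -0.20 and Cdt1 means of -0.28 and 0.76. In IVF embryos Cdc6 steps up from the oocyte (mean -3.32) to the 1-cell stage (-0.94), more than in clones, and again between the 2-cell and 4-cell stages (-1.30 and 0.91).

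The 6 MCM genes encode the subunits of the replicative helicase, which act as 1 ring, but their probe sets did not move together. Over the 13 group means, Pearson's r between pairs of these 6 genes ran from -0.81 (Mcm4 with Mcm6) to 0.63 (Mcm4 with Mcm7), a description over means that share the same arrays. From the 1-cell to the 2-cell stage Mcm6 and Mcm3 rose and Mcm4 fell in both kinds of embryo.

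Mcm2 (chromosome 6, 88883474 to 88898780, 2 probe sets) had steps that differed between clones and IVF embryos at 2 points. It was 0.33, 0.57, 0.19, -0.22 and -0.19 in cloned 1-cell embryos, against -0.79, -1.06 and -0.55 in IVF 1-cell embryos, with every clone higher (0.94 ± 0.22, limma, adjusted p = 0.0591). At the 4-cell stage it was -0.51, -0.86, -0.31, -0.56 and -1.19 in clones, against 0.17, 0.17 and 0.38 in IVF embryos. At the 8-cell stage it was -0.65, -0.38, -0.80, -1.62 and -1.30 in clones, against 0.36, 0.14 and 0.29 in IVF embryos. Every clone was lower than every IVF embryo at both stages, yet neither difference passed the threshold (-0.93 ± 0.20, adjusted p = 0.0765, and -1.21 ± 0.29, adjusted p = 0.0566, limma). Without the 8-cell clone replicate 4 the 8-cell difference was -1.04 (adjusted p = 0.0599), and without clone replicate 2 it was -1.35 (adjusted p = 0.0479). With the hybridisation controls as a covariate it was -0.23 at the 4-cell and -0.35 at the 8-cell stage (adjusted p = 0.923 and 0.779). The 7 oocyte markers also differed without overlap at the 1-cell, 4-cell and 8-cell stages, at the 8-cell stage with a mean of -1.0 in clones and 0.29 in IVF embryos, and their part in these results was not tested.

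Mcm2 fell from the oocyte to the 1-cell stage in both series, and at the next step it fell in clones and rose in IVF embryos. In clones it fell from the oocyte to the 1-cell stage (-0.66 ± 0.24, adjusted p = 0.0487) and again to the 2-cell stage (-0.54 ± 0.22, adjusted p = 0.0485), and rose at the morula stage (1.15 ± 0.22, adjusted p = 0.000423, and 0.88 without replicate 4, adjusted p = 0.00887, limma). In IVF embryos it fell from the oocyte to the 1-cell stage by 1.59 on the log2 scale (SE 0.18, adjusted p = 3.07e-06), rose at the 2-cell stage (0.89 ± 0.18, adjusted p = 0.000686) and rose in the blastocyst (0.55 ± 0.18, adjusted p = 0.0337, limma). Cloned morulae had 0.22, 0.35, -0.24, 0.61 and 0.07, all above every cloned 8-cell embryo, while IVF morulae had 0.07, 0.00 and -0.52, all below every IVF 8-cell embryo (-0.41 ± 0.18, adjusted p = 0.141). Each of the 2 small falls in clones was lost when single replicates were left out: the 2-cell one without clone replicate 1, 2, 3, 4 or 5 (-0.49 to -0.60, adjusted p from 0.0593 to 0.148), and the 1-cell one without clone replicate 1, 3, 4 or 5 or oocyte replicate 1, 2 or 3 (-0.57 to -0.73, adjusted p from 0.0683 to 0.171). The IVF rise in the blastocyst was lost without IVF replicate 1 or 3 (0.32 to 0.61, adjusted p from 0.103 to 0.346).

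The other probe set of Mcm2 told part of this differently. There the IVF step to the 2-cell stage was -0.47 (adjusted p = 0.0159), opposite in sign, and the step differences between clones and IVF embryos were -0.34 at the 2-cell and 0.36 at the morula stage (adjusted p = 0.61 and 0.523). The sign of both step differences was the same as by the main probe set. Without IVF replicate 2 the 2-cell step difference of Mcm2 was -1.14 (adjusted p = 0.0505).

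Mcm5 (chromosome 8, 75109468 to 75128439, 3 probe sets) was the only member past the threshold between clones and IVF embryos at the 1-cell stage. Mcm2 and Mcm4 were also higher in every clone than in every IVF embryo there (0.94 ± 0.22 and 0.78 ± 0.26, limma, adjusted p = 0.0591 and 0.162). Mcm5 was 0.04, -0.14, -0.82, 0.00 and 0.20 in clones, against -1.23, -1.45 and -1.26 in IVF embryos, and the groups did not overlap. The difference was 1.17 ± 0.23, or 2.25-fold (limma, adjusted p = 0.0346). The 7 oocyte markers also stood apart at this stage, with array means from 5.70 to 6.15 in clones and from 5.05 to 5.25 in IVF embryos, and their part in the result was not tested. MII oocytes had -2.98, -3.32 and -1.72, so Mcm5 rose in both, by 2.53 ± 0.50 in clones (adjusted p = 0.000285) and 1.36 ± 0.48 in IVF embryos (adjusted p = 0.0425, limma). Clones then fell at the 2-cell stage (-1.11 ± 0.43, adjusted p = 0.038), and IVF embryos rose at the 4-cell stage (1.89 ± 0.48, adjusted p = 0.00903) and in the blastocyst (1.81 ± 0.48, adjusted p = 0.0134, limma).

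The call for Mcm5 at the 1-cell stage was lost on the probe set with the second largest SD (0.37, adjusted p = 0.77). With the hybridisation controls as a covariate it was 1.55 (adjusted p = 0.0466), but the controls themselves did not overlap between clones and IVF embryos at this stage. The remaining probe set of Mcm5 ran the other way, since clones averaged -0.02 there, against 0.67 for IVF embryos. By the second one the fall of clones at the 2-cell stage was -0.12 (adjusted p = 0.943) and the IVF step to the blastocyst was -0.06 (adjusted p = 0.92). The rises from the oocyte were 1.18 in clones and 0.51 in IVF embryos after renewed quantile normalisation (limma, adjusted p = 0.418 and 0.89). The 1-cell call was also lost when all 51 arrays shared 1 fit (1.17, adjusted p = 0.124). It was lost without clone replicate 1, 2, 4 or 5 or IVF replicate 1, 2 or 3 (1.08 to 1.21, adjusted p from 0.0652 to 0.12), and the IVF rise from the oocyte was lost without IVF replicate 1, 2 or 3 or oocyte replicate 1 or 2 (1.04 to 1.43, adjusted p from 0.076 to 0.176). The IVF rise at the 4-cell stage was lost without IVF replicate 1 or 2 (1.21 to 2.01, adjusted p from 0.08 to 0.271), the IVF rise in the blastocyst without IVF replicate 1, 2 or 3 (1.22 to 2.23, adjusted p from 0.0622 to 0.184), and the fall in clones without clone replicate 1 or 4 (-0.80 to -0.95, adjusted p from 0.148 to 0.225).

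Mcm4 (chromosome 16, 15623897 to 15637400, 2 probe sets) was an oocyte-high member that fell after the 1-cell stage. MII oocytes had 1.65, 1.35 and 1.57. Cloned 2-cell embryos had 0.17, -1.13, -0.54, -1.74 and -0.82, against 1.39, 1.14, 1.31, 0.44 and 0.53 in cloned 1-cell embryos (-1.77 ± 0.31, limma, adjusted p = 2.25e-05). IVF 2-cell embryos had -2.01, -1.72 and -2.03, against 0.27, 0.03 and 0.24 in IVF 1-cell embryos (-2.10 ± 0.13, adjusted p = 3.44e-09). Neither series overlapped across this step, and 4 of the 5 clones stayed above all IVF embryos at the 2-cell stage (1.11 ± 0.41, adjusted p = 0.265). By the other probe set that difference was 1.65 and past the threshold (adjusted p = 0.0276). By that probe set the clone step also differed from the IVF step at the 2-cell and 4-cell stages (1.48 and -1.50, adjusted p = 6.16e-05 and 0.000404). The main one had step differences of 0.33 ± 0.41 and -0.91 ± 0.41 there (adjusted p = 0.836 and 0.311). Mcm4 rose again at the morula stage, by 1.33 ± 0.31 in clones (adjusted p = 0.0031, and 1.05 without replicate 4, adjusted p = 0.027) and 1.15 ± 0.13 in IVF embryos (adjusted p = 1.97e-05, limma). IVF embryos also changed at 3 other steps: -1.35 ± 0.13 from the oocyte to the 1-cell stage (adjusted p = 8.69e-07), 1.01 ± 0.13 at the 4-cell stage (adjusted p = 4.7e-05) and 0.39 ± 0.13 in the blastocyst (adjusted p = 0.0448), the last lost without IVF replicate 1, 2 or 3 (0.36 to 0.43, adjusted p from 0.106 to 0.229) and -0.44 by the other probe set (adjusted p = 0.0675).

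Mcm6 (chromosome 1, 128331575 to 128359705, 3 probe sets) rose at the 2-cell stage in both kinds of embryo. Cloned 2-cell embryos had 0.20, 0.51, 0.24, 0.25 and 0.11, against -0.78, -0.71, -1.01, -0.84 and -1.09 in cloned 1-cell embryos (1.15 ± 0.22, limma, adjusted p = 8.73e-05). IVF 2-cell embryos had 0.81, 0.28 and 0.76, against -0.64, -0.97 and -1.15 in IVF 1-cell embryos (1.54 ± 0.16, adjusted p = 1.14e-06). At the 8-cell stage Mcm6 was 0.22, 0.11, -0.32, 0.08 and -0.59 in clones, against 0.80, 0.88 and 0.60 in IVF embryos, again with every clone lower (-0.86 ± 0.20, adjusted p = 0.0556). Without the 8-cell clone replicate 4 it was -0.91 (adjusted p = 0.0785), and with the hybridisation controls as a covariate -0.53 (adjusted p = 0.689). Mcm6 fell at the morula stage in clones (-0.81 ± 0.22, adjusted p = 0.0112, and -0.98 without replicate 4, adjusted p = 0.007) and in IVF embryos (-0.82 ± 0.16, adjusted p = 0.00195, limma), and these steps differed by 0.01 ± 0.31 (adjusted p = 0.997). The fall in clones was lost without clone replicate 2 (-0.67, adjusted p = 0.111), and by the probe set with the second largest SD the IVF step was 0.24 (adjusted p = 0.507).

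Mcm7 (chromosome 5, 138164583 to 138172111, 4 probe sets) was high in the oocyte, lowest around the 2-cell stage and highest in the blastocyst. It averaged -0.35 ± 0.21, -2.32 ± 1.14, -0.98 ± 0.34, -0.09 ± 1.05, 0.80 ± 0.77 and 2.01 ± 0.32 over the 6 clone stages (SD, n = 5). IVF means were -0.47 ± 0.53, -1.44 ± 1.5, -0.75 ± 0.64, 0.16 ± 0.46, 0.59 ± 0.45 and 2.67 ± 0.38 (SD, n = 3), and oocytes averaged 1.46 ± 0.04. Both series fell from the oocyte, by 1.81 on the log2 scale in clones (SE 0.51, adjusted p = 0.00856) and by 1.94 in IVF embryos (SE 0.56, adjusted p = 0.0148, limma). By this probe set both rose into the blastocyst, by 1.21 ± 0.46 in clones (adjusted p = 0.043) and 2.08 ± 0.56 in IVF embryos (adjusted p = 0.0151). The clone call of Mcm7 was lost by the probe set with the second largest SD (0.55, adjusted p = 0.124), and the other 2 had lower means in cloned blastocysts (0.15 and 0.41) than in cloned morulae (0.95 and 0.67). In IVF embryos these 2 had means of 0.52 and 0.77 in blastocysts, against 0.51 and 0.34 in morulae. Clones also fell at the 2-cell stage (-1.97 ± 0.46, adjusted p = 0.000784) and rose at the 4-cell stage (1.35 ± 0.46, adjusted p = 0.0271), where IVF embryos had steps of -0.96 ± 0.56 and 0.69 ± 0.56 that did not pass. The clone and IVF steps of Mcm7 were not shown to differ (-1.01 ± 0.74, adjusted p = 0.518, and 0.66 ± 0.74, adjusted p = 0.885). Single replicates decided several of these: the rise into the clone blastocyst was lost without clone replicate 1, 2, 3 or 5 (0.86 to 1.35, adjusted p from 0.0594 to 0.186), that at the 4-cell stage without clone replicate 2, 3, 4 or 5 (1.11 to 1.40, adjusted p from 0.0755 to 0.134), and both IVF changes without IVF replicate 2 (-1.69 and 2.54, adjusted p = 0.15 and 0.0798).

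Mcm3 (chromosome 1, 20802966 to 20820312, 5 probe sets) varied widely between embryos of 1 group. Cloned 2-cell embryos had 1.54, 1.45, 1.42, 1.48 and 0.02, against -0.14, -0.34, -0.82, -3.27 and -1.78 in cloned 1-cell embryos (2.46 ± 0.54, limma, adjusted p = 0.000414). IVF 2-cell embryos had 1.35, 1.57 and 1.62, against -0.07, -0.63 and -1.70 in IVF 1-cell embryos (2.32 ± 0.84, adjusted p = 0.0418). The 2-cell values lay above the 1-cell values in both series, and IVF 4-cell embryos then spread over -3.12, -1.44 and 0.85. By the probe set with the second largest SD the step to the 2-cell stage was 0.60 in clones and -0.31 in IVF embryos (adjusted p = 0.17 and 0.768). The other 3 probe sets of Mcm3 had higher means at the 2-cell than at the 1-cell stage in both series, as the main one did. The second probe set rose at the morula stage, by 1.59 in clones (adjusted p = 0.000883) and 2.32 in IVF embryos (adjusted p = 0.000962), where the main one had -0.95 ± 0.54 and 1.17 ± 0.84 (adjusted p = 0.253 and 0.475). Of the main probe set's remaining calls, the fall of clones from the oocyte (-1.73 ± 0.60, adjusted p = 0.0344) was lost without clone replicate 3 or 4 or oocyte replicate 1, 2 or 3 (-1.23 to -1.84, adjusted p from 0.0585 to 0.154). The IVF rise at the 2-cell stage was lost without IVF replicate 2 or 3 (1.81 to 2.38, adjusted p from 0.175 to 0.215), and the IVF fall at the 4-cell stage (-2.76 ± 0.84, adjusted p = 0.0253) without IVF replicate 1 or 2 (-1.90 to -2.63, adjusted p from 0.124 to 0.163).

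**Figure D4:**
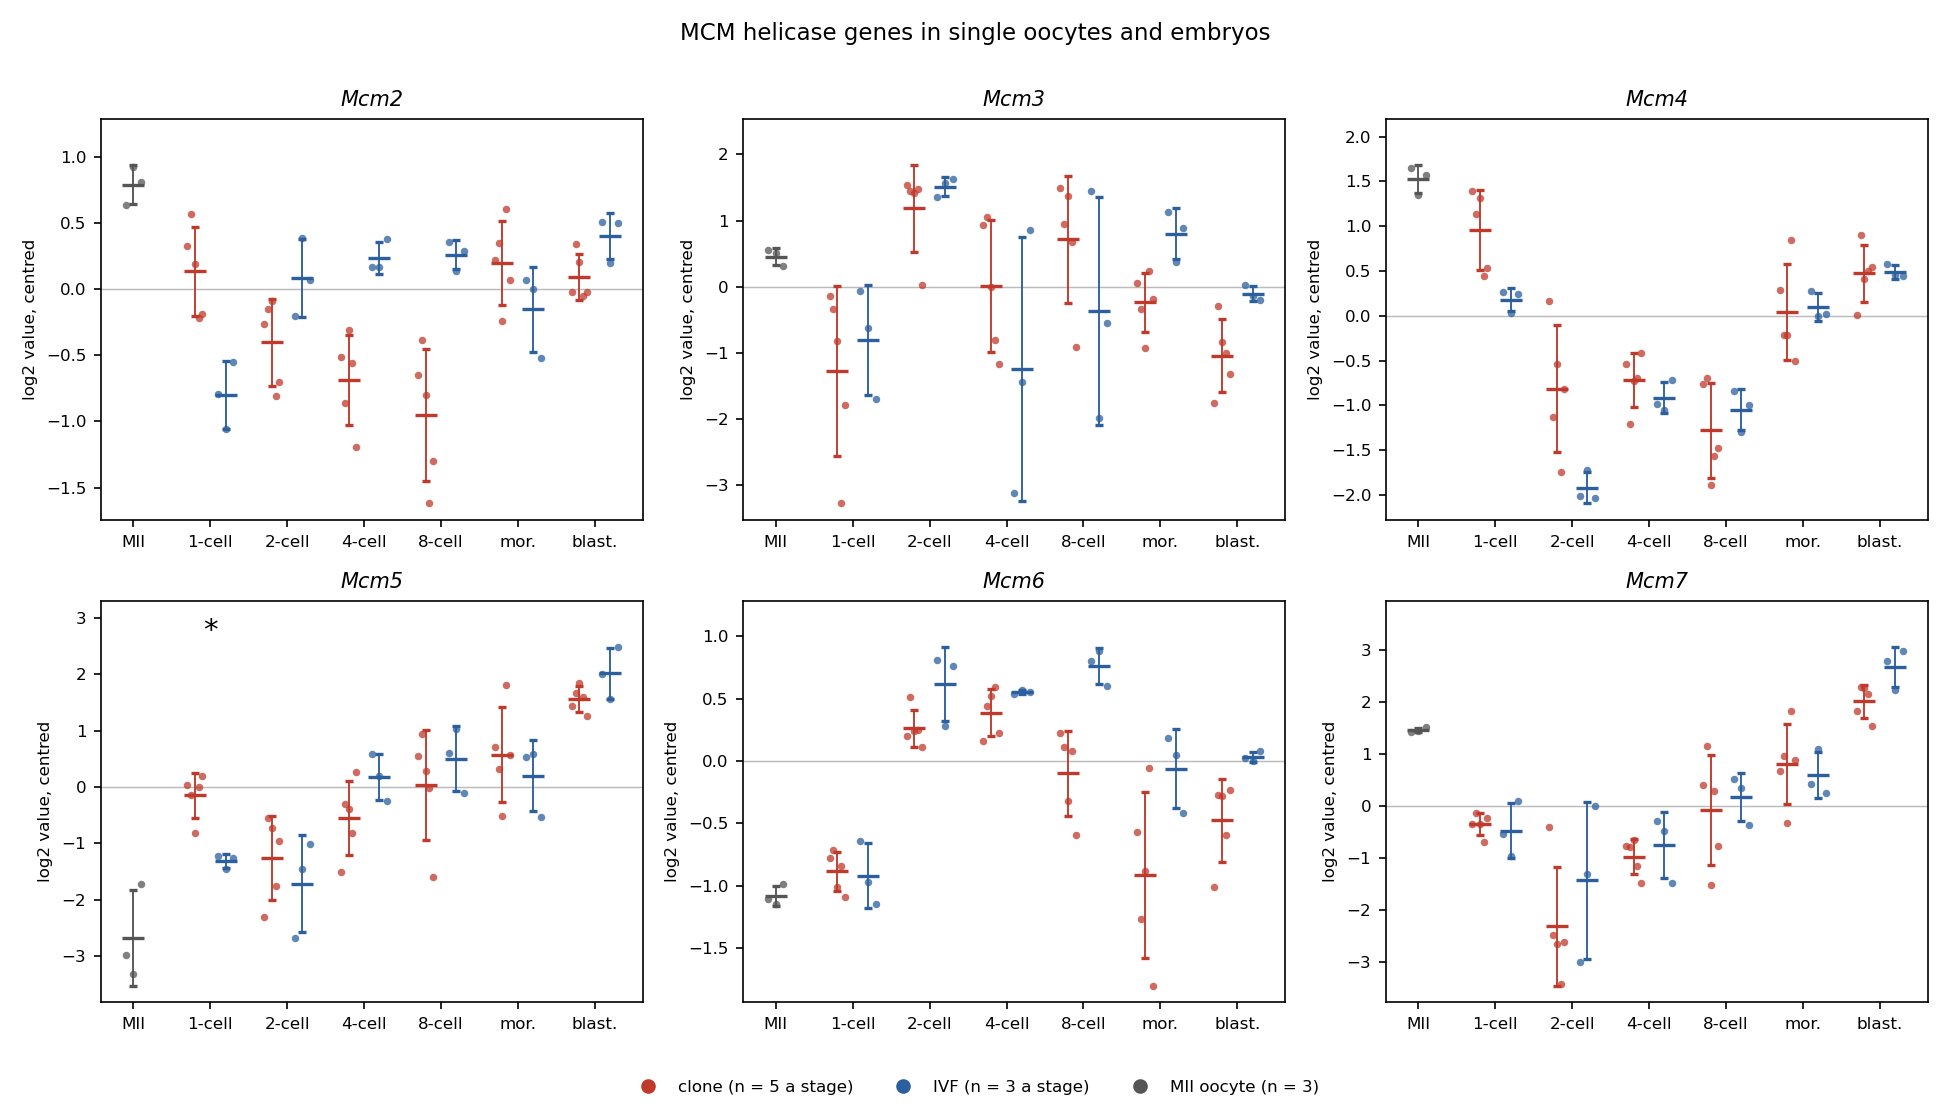
Centred log2 values of Mcm2 to Mcm7 (vertical axes) in MII oocytes and at the 6 stages (horizontal axes), with a point for each embryo, clones left of IVF embryos within a stage, bars for the mean and SD, and an asterisk where clones and IVF embryos differed at an adjusted p below 0.05 (Mcm5 at the 1-cell stage). Mcm2 in clones lies below IVF embryos at the 4-cell and 8-cell stages, with means of -0.69 and -0.95 against 0.24 and 0.26.

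Ccne1 encodes cyclin E1 (chromosome 7, 38097984 to 38107490, 2 probe sets) and had the widest range of the members. MII oocytes had -1.78, -1.84 and -1.68, and 1-cell embryos lay below all of them. Cloned 1-cell embryos had -3.16, -3.70, -3.66, -5.25 and -4.16 (-2.22 ± 0.46 from the oocyte, limma, adjusted p = 0.000406). IVF 1-cell embryos had -4.43, -5.08 and -4.48 (-2.90 ± 0.26, adjusted p = 3.4e-07). The 1-cell groups overlapped, and clones differed from IVF embryos by 0.68 ± 0.47 (adjusted p = 0.587).

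At the 2-cell stage every embryo lay above every 1-cell embryo in Ccne1. Clones had 2.49, 2.36, 2.22, 2.19 and 2.60, against 3.67, 3.40 and 4.00 in IVF embryos, and the groups did not overlap. The rise from the 1-cell stage was 6.35 ± 0.41 in clones, or 81.8-fold (adjusted p = 6.33e-13), and 8.36 ± 0.26 in IVF embryos, or 328-fold (adjusted p = 1.47e-12, limma). Clones were 2.5-fold lower than IVF embryos (-1.32 ± 0.16, adjusted p = 0.0147), a call that was lost after renewed quantile normalisation (-1.12, adjusted p = 0.108).

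At the 4-cell stage Ccne1 stayed apart in clones, which had 1.79, 1.09, 1.80, 1.10 and 1.08, against 2.61, 2.68 and 2.77 in IVF embryos, with every clone lower (-1.31 ± 0.22, limma, adjusted p = 0.0355). The oocyte markers stood apart there too, with array means from -0.62 to 0.52 in clones and from 0.54 to 0.90 in IVF embryos, and their part in the result was not tested. At the 8-cell stage clones spread over 1.23, 1.92, 0.00, 0.16 and -0.10, against 1.81, 2.26 and 2.43 in IVF embryos, with 1 clone inside the IVF range. That difference (-1.53 ± 0.52, adjusted p = 0.122, and -1.40 without replicate 4 of the clones, adjusted p = 0.185) and that of the morulae (-1.39 ± 0.54, adjusted p = 0.455) did not pass the threshold.

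The blastocyst turned the order round. Cloned blastocysts had -1.52, -1.32, -1.64, -0.74 and -1.51, against -3.70, -2.59 and -2.79 in IVF blastocysts, with every clone higher (1.68 ± 0.31, or 3.21-fold, limma, adjusted p = 0.0291). The 3′ minus 5′ signal of the RNA quality controls ran from -1.52 to -0.722 in cloned and from -2.36 to -1.63 in IVF blastocysts (exact permutation test, p = 0.0179, adjusted over the 6 stages 0.107), and its part in the result was not tested. IVF embryos fell between morula and blastocyst (-3.63 ± 0.26, or 12.4-fold, adjusted p = 8.93e-08), while the clone step was -0.56 ± 0.41 (adjusted p = 0.314). The difference between these steps, 3.07, kept its call under all 13 alternative fits that were run, with values from 2.68 to 3.86 and adjusted p of at most 0.0348. None of these fits held the hybridisation controls as a covariate. Between the 8-cell and morula stages Ccne1 fell in clones (-1.43 ± 0.41, adjusted p = 0.0159, and -1.84 without replicate 4, adjusted p = 0.00351) and in IVF embryos (-1.57 ± 0.26, adjusted p = 0.000491), with a difference between the steps of 0.14 ± 0.57 (adjusted p = 0.979).

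The calls for Ccne1 between clones and IVF embryos varied in how far they held. By its other probe set the 2-cell means were 1.89 ± 0.19 in clones and 2.04 ± 0.10 in IVF embryos (-0.15, adjusted p = 0.73), the 4-cell difference was -0.74 (adjusted p = 0.142), and the blastocyst means were -1.32 ± 0.45 in clones and -3.35 ± 0.37 in IVF embryos. With the hybridisation controls as a covariate the differences were -1.42, -0.39 and 1.42 at the 2-cell, 4-cell and blastocyst stages (adjusted p = 0.997, 0.876 and 0.151). The 2-cell call held without each single replicate. That at the 4-cell stage was lost without clone replicate 2, 4 or 5 or IVF replicate 1, 2 or 3 (-1.24 to -1.36, adjusted p from 0.0674 to 0.115), and that in the blastocyst without clone replicate 1, 2, 3 or 5 or IVF replicate 1 or 3 (1.35 to 1.80, adjusted p from 0.0505 to 0.0691). The 2-cell step difference of Ccne1 was -1.94 without IVF replicate 2 or 3 (adjusted p = 0.0819 and 0.0778) and -0.14 by the other probe set (adjusted p = 1). The fall at the morula stage in clones was lost without clone replicate 1, 2 or 3 (-1.22 to -1.34, adjusted p from 0.0665 to 0.0952), and the IVF step to the 4-cell stage (-1.0 ± 0.26, adjusted p = 0.00988) was -0.89 without IVF replicate 3 (adjusted p = 0.107) and 0.48, opposite in sign, after renewed quantile normalisation (adjusted p = 0.307).

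In order of level, Ccne1 was highest in IVF 2-cell embryos (3.69 ± 0.30), followed by IVF 4-cell embryos (2.69 ± 0.08) and cloned 2-cell embryos (2.37 ± 0.17), none of which overlapped its neighbour (SD, n = 3, 3 and 5). Cloned 2-cell embryos overlapped the next group, IVF 8-cell embryos (2.17 ± 0.32). Cloned 4-cell embryos lay below these without overlap, and cloned 8-cell embryos, IVF morulae, cloned morulae and cloned blastocysts followed, each overlapping the one before it. Oocytes lay lower still, by the means, and IVF blastocysts and the 1-cell embryos of both kinds lay below every oocyte.

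Ccne2 encodes cyclin E2 (chromosome 4, 11190433 to 11204779, 1 probe set) and did not follow Ccne1, with Pearson's r of 0.41 between the 2 genes over the 13 group means. Cloned 1-cell embryos had -0.69, -3.45, -2.51, -2.52 and -2.90, against 0.59, 0.24 and -0.01 in MII oocytes, all lower (-2.69 ± 0.58, limma, adjusted p = 0.000704). IVF 1-cell embryos had -0.27, 0.88 and -0.51, near the oocytes (-0.24 ± 0.69, adjusted p = 0.921) and above every clone. The difference between clones and IVF embryos of -2.45 ± 0.66 did not pass the threshold (adjusted p = 0.0916). It passed without clone replicate 1 (-2.88, adjusted p = 0.0298) and when all 51 arrays shared 1 fit (-2.45, adjusted p = 0.00505).

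Clones then climbed in Ccne2 in 3 steps, at the 2-cell (1.58 ± 0.52, adjusted p = 0.0147), 4-cell (2.04 ± 0.52, adjusted p = 0.00341) and morula stages (1.72 ± 0.52, adjusted p = 0.0218, limma). None of the IVF steps up to the morula passed the threshold, and none of these 3 clone steps was shown to differ from the IVF step (1.37 ± 0.87, adjusted p = 0.409, 2.20 ± 0.87, adjusted p = 0.206, and 0.40 ± 0.87, adjusted p = 0.912). Cloned morulae had 1.92, 1.88, 2.49, 2.25 and 1.07, against 1.47, 0.04 and 1.92 in IVF morulae, which overlapped. Ccne2 fell in the blastocyst in clones (-2.71 ± 0.52, adjusted p = 0.000251) and in IVF embryos (-3.60 ± 0.69, adjusted p = 0.0016). Cloned blastocysts had -0.75, 0.23, -1.42, -0.02 and -1.99, against -3.49, -1.75 and -2.12 in IVF blastocysts, with 4 clones above all IVF embryos (1.66 ± 0.64, adjusted p = 0.21). The 2-cell step in clones was lost without clone replicate 2 or 3 (1.08 to 1.21, adjusted p from 0.123 to 0.16), the 4-cell step without clone replicate 4 (1.68, adjusted p = 0.058), the morula step without clone replicate 3 or 4 (1.53 to 1.59, adjusted p from 0.0986 to 0.11), and the IVF fall without IVF replicate 1 (-2.91, adjusted p = 0.0536).

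**Figure D5:**
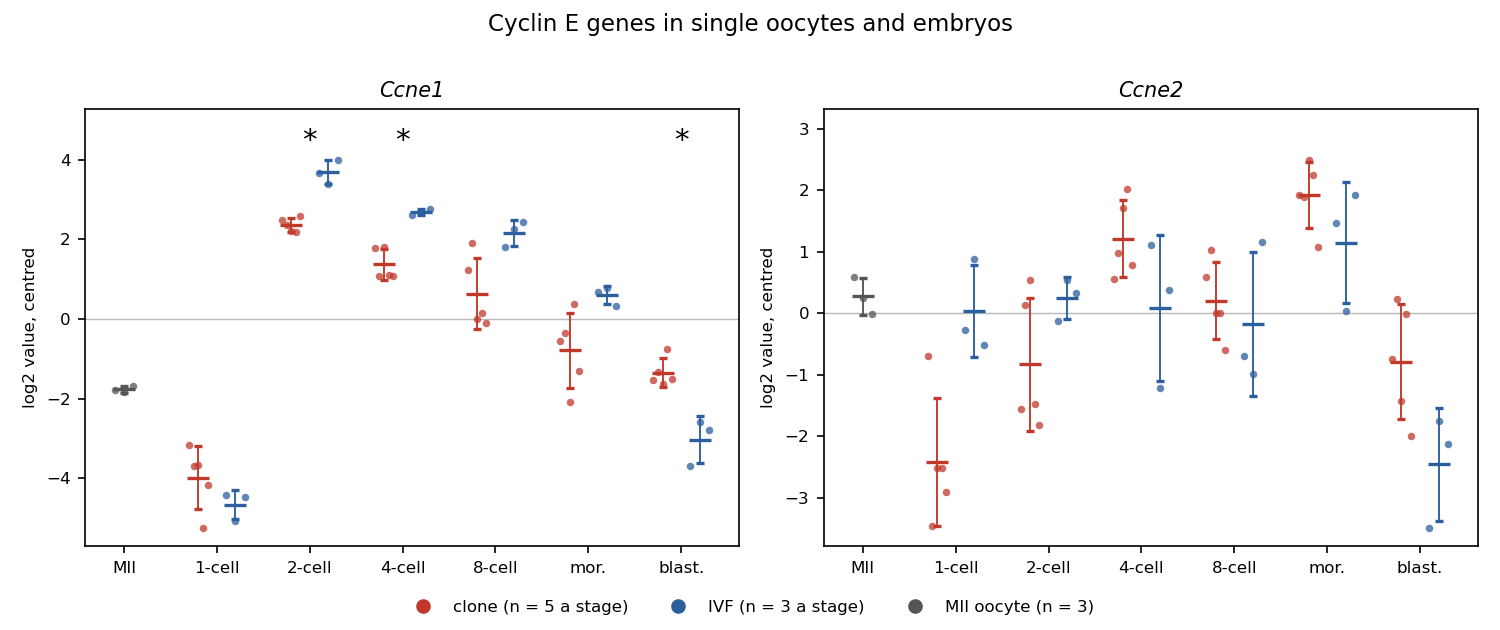
Centred log2 values of Ccne1 and Ccne2 (vertical axes) in MII oocytes and at the 6 stages (horizontal axes), with a point for each embryo, clones left of IVF embryos within a stage, bars for the mean and SD, and an asterisk where clones and IVF embryos differed at an adjusted p below 0.05. Ccne1 lies lower in clones at the 2-cell stage (mean 2.37 against 3.69) and higher in cloned blastocysts (-1.35 against -3.03).

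The genes whose 13 group means followed these profiles most closely were ranked among 8555 genes with enough spread, as a description with no test. The mean of Mcm2 to Mcm7 was nearest to Grb7 (r = 0.945), Dab2ip (0.937), Atp6v0b (0.936), Fam160a2 (0.933) and Sub1 (0.931). Cdc6 was nearest to Nif3l1 (0.962), Pqbp1 (0.960) and Psma6 (0.957), and Cdt1 to Uhmk1 (0.915), Ltbp3 (0.912) and Acsl4 (0.907). Ccne1 was nearest to Nip7 (0.972), Timm29 (0.965) and Kti12 (0.961), each highest in IVF 2-cell and lowest in IVF 1-cell embryos as Ccne1 was. Ccne2 had no close match, with Plk2 (0.711), Tlcd4 (0.708) and Art3 (0.691) the nearest. Among the members, Mcm6 followed Ccne1 (0.82), and Mcm4 ran against it (-0.81).

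The wider pathway was read from 8 lists of 91 genes, of which 88 were measured. These genes were read from limma's main fit, and for comparisons with the 8-cell stage also without clone replicate 4. The other alternative fits, such as that with the hybridisation controls as a covariate, were not read for them. In clones against IVF embryos, 5 rose and 8 fell at the 1-cell stage (14.8%), 3 rose and 2 fell at the 2-cell stage (5.68%), 0 rose and 2 fell at the 4-cell stage (2.27%), 1 rose and 10 fell at the 8-cell stage (12.5%), 0 changed in morulae and 2 rose and 7 fell in blastocysts (10.2%). The shares of all genes in the same comparisons are given above, and the median of the 88 genes was -0.36 at the 8-cell stage, the farthest from 0.

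At the 1-cell stage 3 of 24 replication fork genes were higher and 4 lower in clones. Prim2, a primase subunit, was higher by 3.24 ± 0.44 and Pold3, a subunit of DNA polymerase delta, was lower (-2.18). Cdk2, the kinase that cyclin E activates, was lower in clones (-1.12), as was its inhibitor Cdkn1b (-1.58), and Cul4a, a scaffold of the ligase that destroys Cdt1, was higher (2.50). At the 2-cell stage Orc2, of the origin recognition complex, and Pcna, the sliding clamp, were higher in clones (1.45 and 1.35), and Recql4, which acts at origin firing, was lower (-2.44).

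Dbf4, the activating subunit of the kinase that fires licensed origins, was lower in clones at the 2-cell, 4-cell and 8-cell stages (-1.0, -1.55 and -2.80). Gmnn, which encodes geminin, the inhibitor of Cdt1, was lower at the 4-cell and 8-cell stages (-0.66 and -0.77). At the 8-cell stage Recql4 (-2.60), Tyms (-2.65), which makes thymidylate, Pold2 (-2.07), Rpa3 (-1.85), Mcm8 (-1.31) and Ccna2, or cyclin A2 (-1.30), were also lower in clones, and Pold1 (1.28) was higher. Without clone replicate 4, a fit added after the data were seen, 1 pathway gene was higher and 7 were lower at this stage (9.09%). The share of all genes called in that fit is not given here. Recql4 (-2.49), Tyms (-2.56) and Mcm8 (-1.29) then missed the threshold (adjusted p = 0.0689, 0.0608 and 0.0707), while Dbf4 (-2.86), Gmnn (-0.79), Pold2 (-2.08), Rpa3 (-1.55), Ccna2 (-1.20) and Pold1 (1.45) passed it. Ccna2 was higher in cloned blastocysts (0.47), where Cdk2 (-0.47) and Cdk4 (-0.56) were lower. There E2f7 was higher (1.5) and E2f8 lower (-2.25) in clones, and both encode atypical E2F repressors.

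The step from the 1-cell to the 2-cell stage changed 58 of the 88 pathway genes in clones (27 up, 31 down, 65.9%) and 50 in IVF embryos (23 up, 27 down, 56.8%), beside 41.3% and 35.9% of all genes. Prim1, the catalytic primase subunit, rose by 4.76 ± 0.22 in clones and 2.1 ± 0.12 in IVF embryos, and Rrm2, of ribonucleotide reductase, by 5.24 ± 0.31 and 3.64 ± 0.55. Cdkn1b fell by 3.10 on the log2 scale in clones and by 4.76 in IVF embryos. The difference between the clone and IVF steps was past the threshold for 21 of the 88 (9 up, 12 down, 23.9%, beside 11.2% of all genes), among them Prim2 (-4.66), Prim1 (2.66), E2f4 (-2.43) and Gmnn (-0.66). At the 8-cell to morula step it was past the threshold for 9 (7 up, 2 down, 10.2%, beside 5.66% of all genes), with Dbf4 (2.34), Recql4 (2.98), Tyms (2.53) and Ccna2 (1.38) gaining more or losing less in clones. Without clone replicate 4 it was past the threshold for 8 (6 up, 2 down, 9.09%), and these 4 passed it (2.29, 2.93, 2.30 and 1.18). Here too the share of all genes called without that replicate is not given.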

How the data were processed

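RNA of 51 single oocytes and embryos was amplified with a two-cycle protocol and hybridised to Affymetrix Mouse Genome 430 2.0 arrays, per the labels' protocols. The deposited values are log2 values from RMA, per the labels. The largest range of a probe set was 13.8, and 94.3% of probe sets had exactly 1 array at 0, so the values are centred on each probe set's median. The step that centred them, and the genome build, are not given in the sources used here. All value columns belong to a labelled sample, and replicate numbers only name embryos.

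Probe sets were named through the platform annotation: of 45101, 64 were controls, 34945 had 1 gene symbol, 932 several and 9160 none. For the 9010 genes with several probe sets the one of widest spread (SD) across the arrays stood for the gene. Gene positions and promoters are RefSeq's on GRCm38.p6.

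R 4.3.3 with limma 3.58.1 (linear fits, moderated by eBayes) tested differences over 18193 genes, with Benjamini-Hochberg adjustment and a threshold of 0.05. Each stage comparison used its 8 arrays, IVF steps the 21 IVF and oocyte arrays, clone steps the 30 clone arrays (33 with oocytes), and differences between steps all 51. The fits were tested on simulated data. The number of arrays limits the precision. The members and gene lists were chosen with earlier results of these data known. All 10 members were named, and of each other pathway list up to 3 genes per comparison with the smallest adjusted p past the threshold. Likeness was ranked as Pearson's r over the 13 group means, among genes with an SD of at least 1, and the top 5 were named for the mean of Mcm2 to Mcm7 and the top 3 for the other genes.

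Alternatives were median centring of each array, renewed quantile normalisation, the probe set with the second largest SD, leaving out the lowest 30% of genes by SD, the replicate number as a block, the hybridisation controls as a covariate, all 51 arrays in 1 fit, and each replicate left out. The covariate and the fit of all 51 arrays were alternatives for the stage comparisons only. Leaving clone replicate 4 out of the tests of the other pathway genes was added after seeing the data. Replicate numbers did not pair embryos, with correlations of same-numbered deviations from -0.204 to 0.102.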

Additional observations from a re-analysis of the deposited data

Results flagged for a closer look

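Mcm3 in replicate 5 of the cloned 2-cell embryos was 0.02 on the centred log2 scale, while the other 4 lay between 1.42 and 1.54. Its gap to the nearest of them was 0.920 of the group's range, above Dixon's critical value of 0.71. This was 1 of 60 groups tested, and chance alone marks about 1 in 20.

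The change from 1 stage to the next differed between clones and IVF embryos in 6 of 50 tests, by limma's interaction term over all 51 arrays. The share of all genes called was 11.2%, 2.64%, 1.31%, 5.66% and 1.62% at the 5 steps in order from the 1-cell stage. At the 1-cell to 2-cell step the clone change minus the IVF change was -2.0 for Ccne1 (adjusted p = 0.0152), 2.19 for Cdc6 (adjusted p = 0.00106), 1.01 for Cdt1 (adjusted p = 0.00111) and -1.42 for Mcm2 (adjusted p = 0.00141). At the 8-cell to morula step it was 1.56 for Mcm2 (adjusted p = 0.00138). Without replicate 4 of every clone stage, which includes the 8-cell embryo with low Eif2s3y, it was 1.29 (adjusted p = 0.00571). At the morula to blastocyst step it was 3.07 for Ccne1 (adjusted p = 0.000946).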

How the results depend on the processing

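A difference was counted as unchanged if both fits called it in the same direction, or if neither called it, whatever its direction. Most were not called in the main fit, so these counts say little of the calls. Of 230 single differences, 228 were unchanged under median centring of each array and 224 without the lowest 30% of genes by SD. With a replicate block 219 were, and after renewed quantile normalisation 195. By the second probe set 148 of 184 were, over the 8 genes that have one. Of the 60 stage differences, 57 were with the hybridisation controls as a covariate and 47 with all 51 arrays in 1 fit. The 3 that changed with the covariate were the calls of Ccne1 at the 2-cell, 4-cell and blastocyst stages, all lost. Where a count or direction moved, the cause was not tested. The shares of all genes called in these alternative fits are not given here, so the counts below are not read as results about the members. In clones against IVF embryos the members called at the 1-cell stage, 1 in all, became 2 without the lowest 30% of genes, 0 by the second probe set and 3 with all 51 arrays. With all 51 arrays the 3 were Ccne2, Cdc6 and Mcm2, and the call of Mcm5 was lost (1.17, adjusted p = 0.124). At the 2-cell stage 1 became 0 after quantile normalisation, with the replicate block or with the covariate, and 4 with all 51 arrays. At the 4-cell stage 1 became 0 in the same 3 fits and by the second probe set, and 2 with all 51 arrays. At the 8-cell stage 0 became 1 after quantile normalisation, 2 without the lowest 30% of genes and 3 with all 51 arrays, and in morulae 0 became 2 with all 51 arrays. In blastocysts 1 became 0 with the replicate block or the covariate. With the replicate block Mcm5 at the 1-cell stage was 1.01 (adjusted p = 0.257), and Ccne1 -1.34, -1.13 and 1.54 at the 2-cell, 4-cell and blastocyst stages (adjusted p = 0.313, 0.293 and 0.181). In that fit Mcm4 gained a call at the 1-cell stage (1.10, adjusted p = 0.0482).

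After quantile normalisation the IVF steps to the 1-cell, 2-cell and 4-cell stages had 3 members called each, against 6, 5 and 5. The clone steps to the 1-cell and 2-cell stages had 0 and 6 against 7 and 10, and the step differences had 1 against 4 at the 2-cell and 2 against 1 at the morula stage. By the second probe set, or the only one for Cdc6 and Ccne2, the step differences numbered 2 at the 2-cell (Cdc6 and Mcm4), 1 at the 4-cell (Mcm4) and 0 at the morula stage, against 4, 0 and 1. The calls of Ccne1, Cdt1 and Mcm2 at the 2-cell stage were lost there, and those of Mcm4 were gained. With single replicates left out the counts ran from 0 to 1 at the 1-cell, 4-cell, 8-cell and blastocyst stages. They ran from 3 to 5 for the IVF step to the 4-cell stage (3 without IVF replicate 1 or 2) and from 2 to 3 for that to the blastocyst, against 6 with all replicates (2 without IVF replicate 1). They ran from 1 to 3 for the clone step to the 4-cell stage (1 without clone replicate 4), from 4 to 7 for that from the oocyte (4 without oocyte replicate 3) and from 2 to 4 for the step difference at the 2-cell stage (2 without IVF replicate 2).

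Turns of direction were looked for only among differences past the threshold in either fit. Direction turned after quantile normalisation for Ccne1 at the IVF step to the 4-cell stage (0.48) and Cdt1 at the clone step to the 4-cell stage (0.50). By the second probe set it turned at IVF steps for Mcm2 (-0.47 to the 2-cell stage and -0.35 to the blastocyst), Mcm3 (-0.31 to the 2-cell and 0.79 to the 4-cell stage), Mcm4 (-0.44) and Mcm5 (-0.06) to the blastocyst and Mcm6 (0.24) to the morula. At clone steps it turned for Cdt1 (-0.09 to the 2-cell stage) and Mcm3 (1.59 to the morula and 0.20 from the oocyte). Signal over background could not be read from centred values, so a low probe set cannot be told from an undetected one.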
